A study of Arabidopsis thaliana with 12 samples.

Results

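Loss of the chromatin remodeler BRM was followed in whole seedlings of Arabidopsis thaliana whose other genes were wild type, by setting 3 brm-1 arrays against 3 Col arrays, 6 of the 12 arrays of the series. The groups were taken from the sample titles. The mutant plants carried brm-1, a T-DNA insertion that the study describes as a null allele, and the plants they were set against were the wild-type accession Columbia (Col), in which the mutant was kept. Both were 14 days old and grown under long days, RNA of whole seedlings was extracted, labelled with biotin and hybridised to Affymetrix ATH1 arrays, and the labels call the 3 samples of a genotype biological replicates. The labels and methods used here do not say how many seedlings were pooled or whether they were grown on plates or soil. The other 6 arrays (clf-29 and brm-1 clf-29, 3 each) entered the fits to estimate the spread. In fits with a replicate term or block they also helped to estimate the shift of a replicate across genotypes. They were compared with each other only for the results flagged near the end. No probe set with BRM as its gene entered the fit, and the genotypes were taken as labelled.

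BRM (BRAHMA) is the ATPase of a SWI/SNF complex, which uses the energy of ATP to slide or remove nucleosomes and thereby changes the access of transcription factors to DNA. Plants without it are dwarfed, with curled leaves and altered flowering, and the protein is known to act in hormone signalling, in seedling growth and in the balance with Polycomb repression. The question of the comparison is which transcripts depend on BRM while the H3K27 methyltransferase CLF is present.

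Values are log2 MAS5 signals, so a difference of 1 is a factor of 2 in signal. Of 13356 genes, limma called 93 higher (0.696%) and 156 lower (1.17%) in brm-1 at an adjusted p under 0.05, 1.86% of all. The 3 brm-1 arrays lay wholly above the 3 Col arrays in 8.92% of the genes and wholly below in 11.7%. Replicate 3 of both genotypes stood apart from replicates 1 and 2, with a correlation of 0.9478 and 0.9438 to the others in brm-1 and of 0.9627 and 0.9669 in Col, while replicates 1 and 2 correlated at 0.9872 in brm-1 and 0.989 in Col. With a term for replicate 3, 336 genes were higher (2.52%) and 394 lower (2.95%, together 5.47%), and with the replicate number as a block 288 were higher (2.16%) and 350 lower (2.62%, together 4.78%). All 249 genes of the plain fit were also called with the term and with the block. Of the 481 genes called only with the term, 480 had the same sign in replicates 1 and 2 as in replicate 3. That fit favours genes with like differences in the replicates, so this agreement was largely set by the selection. Their SD within a genotype had a median of 0.219 on the log2 scale, against 0.171 for the 249 genes. Below, a gene "passed with the replicate term" where it was called in that fit but not in the plain one. Centring each array on its median adds 0.11 to every difference, which took the counts with the term to 729 higher and 281 lower. Quantile normalization gave 389 higher and 351 lower. Of the 44 genes with a name called in the plain fit and described below, 15 kept their call whichever of the 6 arrays was left out: ACLA-3, AGL24, ALDH3F1, BETA-VPE, ECS1, GH9B13, GTR1, LPR2, PMEAMT, RING1, SAG29, SBT4.12, UGT84A3, bHLH115 and sks15. Of the 85 called only with the term, 15 did so in that fit. Small falls are tied to the scaling, and the classes below are given with their median under centring where the direction turns.

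**Figure D1:**
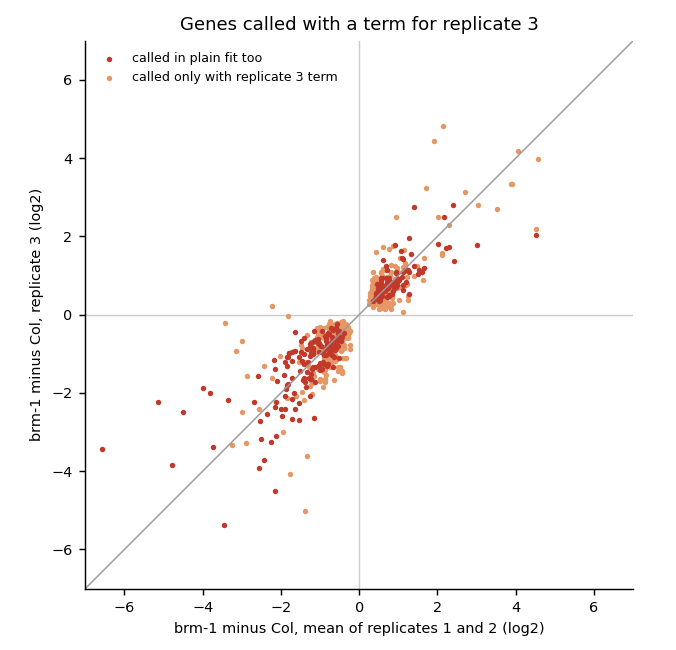
Each point is 1 of the 730 genes called with a term for replicate 3, with the difference of brm-1 minus Col in log2 MAS5 signal averaged over replicates 1 and 2 on the horizontal axis and in replicate 3 on the vertical axis. The diagonal marks equal differences. The genes lie in the lower left and upper right corners, except 1 gene that was lower in replicates 1 and 2 and slightly higher in replicate 3. A call in this fit favours that pattern.

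Among genes with a name of their own, the 7 falls with the smallest adjusted p were those of RING1, SBT4.12, AGL24, UGT84A3, LPR2, GH9B13 and ACLA-3. AGL24 and UGT84A3 are given with their families below. RING1, a membrane-bound RING-finger ubiquitin ligase (not the Polycomb protein of a similar name), was at 8.45, 8.21 and 8.07 in the brm-1 arrays, against 10.20, 10.47 and 10.49 in the Col arrays. The groups did not overlap, and the gene fell by 2.14 ± 0.14 (SE; limma, adjusted p = 9.27e-06). The subtilisin-like protease gene SBT4.12 was at 8.80, 8.69 and 8.44 in the brm-1 arrays, against 10.67, 10.44 and 10.20 in the Col arrays, a fall of 1.79 ± 0.16 (adjusted p = 9.47e-05). GH9B13, of the plant cellulase family, was at 8.41, 8.35 and 8.24 in the brm-1 arrays, against 9.66, 9.92 and 9.85 in the Col arrays and fell by 1.48 ± 0.17 (adjusted p = 0.000941). In all 3 genes every brm-1 array lay more than 1 log2 unit under every Col array. LPR2, a multicopper oxidase that acts in the root response to low phosphate, was at 9.61, 9.58 and 9.34 in the brm-1 arrays, against 10.30, 10.38 and 10.32 in the Col arrays, a fall of 0.82 ± 0.09 (adjusted p = 0.000674). ACLA-3, a subunit of the ATP-citrate lyase that makes cytosolic acetyl-CoA, was at 10.02, 9.96 and 10.03 in the brm-1 arrays, against 10.56, 10.75 and 10.74 in the Col arrays (a fall of 0.68 ± 0.09, adjusted p = 0.00185).

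Smaller falls were called in genes of growth control and of membrane and stress metabolism. SIM (SIAMESE), an inhibitor of cyclin-dependent kinases known for trichome endoreduplication, was at 8.64, 8.42 and 8.45 in the brm-1 arrays, against 9.30, 9.38 and 9.20 in the Col arrays and fell by 0.79 ± 0.15 (adjusted p = 0.0211). PMEAMT, which methylates phosphoethanolamine on the way to choline, fell by 0.82 ± 0.13 (adjusted p = 0.00705), and the aldehyde dehydrogenase gene ALDH7B4 by 0.76 ± 0.13 (adjusted p = 0.0102). Another member of that enzyme family went the other way: ALDH3F1 was at 10.89, 10.88 and 11.05 in the brm-1 arrays, against 10.19, 10.07 and 10.12 in the Col arrays and rose by 0.81 ± 0.11 (adjusted p = 0.00229). Falls of the same order were those of TET3, a plasma membrane tetraspanin (-0.59 ± 0.10, adjusted p = 0.0116), of NET4B, an actin-binding protein of the NETWORKED family (-0.57 ± 0.12, adjusted p = 0.0345), of the transcriptional coactivator KELP (-0.47 ± 0.10, adjusted p = 0.0298) and of ATERDJ3B, a co-chaperone of the endoplasmic reticulum (-0.46 ± 0.09, adjusted p = 0.0192). All of these passed with the replicate block too, as did every gene called in the plain fit. With 1 of the 6 arrays left out, the plain call of ALDH7B4 was kept in 4 fits and that of TET3 in 3. Those of SIM and ATERDJ3B were kept in 2, that of NET4B in 1 and that of KELP in none.

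The rises among named genes included a vacuolar protease, a transporter and hormone-linked genes. BETA-VPE, a vacuolar processing enzyme that matures storage and vacuolar proteins, was at 8.98, 9.0 and 9.28 in the brm-1 arrays, against 7.87, 8.00 and 7.65 in the Col arrays, a rise of 1.25 ± 0.17 (adjusted p = 0.00228). GTR1 (NPF2.10), a transporter that moves glucosinolates, was at 9.56, 9.46 and 9.65 in the brm-1 arrays, against 8.68, 8.91 and 8.82 in the Col arrays and rose by 0.75 ± 0.12 (adjusted p = 0.00618). BRH1, a RING-H2 gene named for its response to brassinosteroids, was at 10.68, 10.71 and 11 in the brm-1 arrays, against 10.14, 10.11 and 10.06 in the Col arrays (a rise of 0.69 ± 0.13, adjusted p = 0.0214). The lowest brm-1 array was above the highest Col array in each. IQD22, a calmodulin-binding IQ-domain protein, rose by 0.86 ± 0.19 (adjusted p = 0.0437), while its relative IQD23 differed by -1.0 ± 0.23 and passed only with the replicate term (adjusted p = 0.0187). SAH7 rose by 0.35 ± 0.08 (adjusted p = 0.0378).

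**Figure D2:**
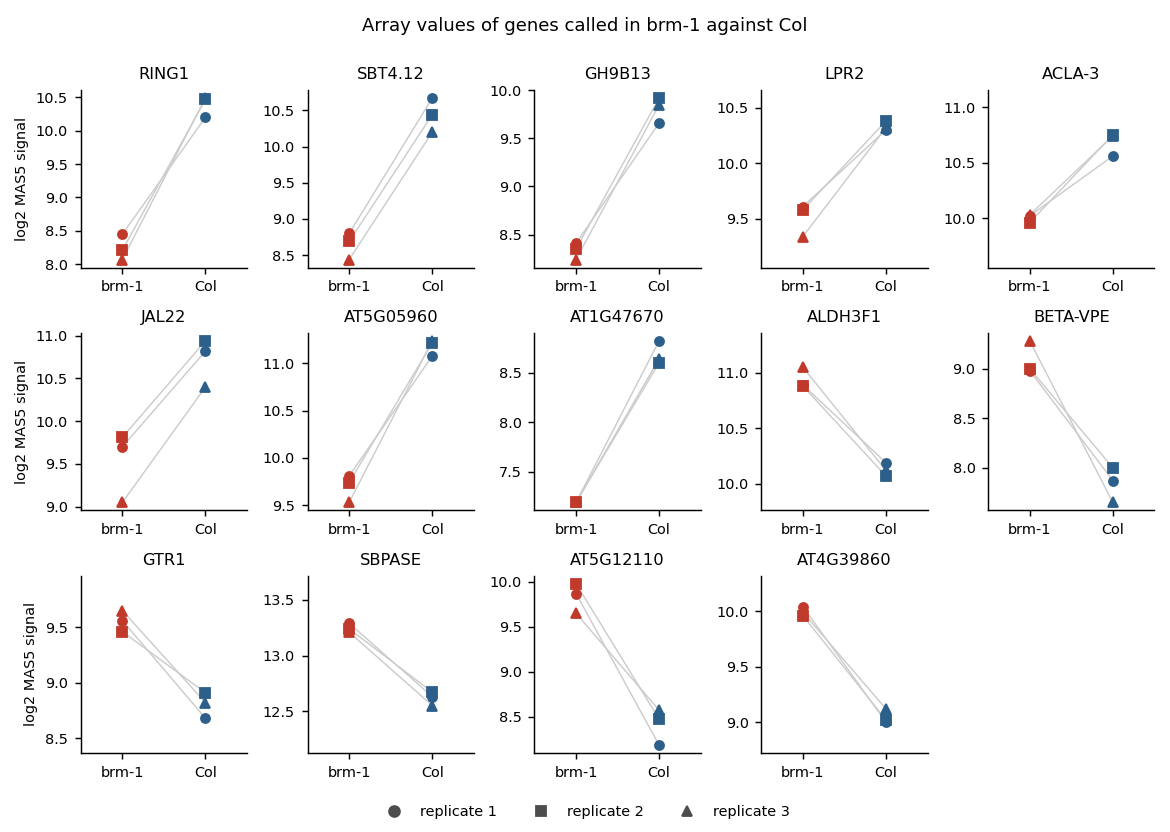
Log2 MAS5 signals of 14 genes called in the plain fit, 1 panel per gene, with brm-1 at the left in red and Col at the right in blue, and a line joining arrays with the same replicate number. Each vertical axis has its own range. In every panel the 3 brm-1 arrays lie apart from the 3 Col arrays, as for RING1 (8.07 to 8.45 in brm-1, 10.20 to 10.49 in Col). For the genes ranked by size this was a condition of the ranking.

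Most called genes carry only a locus number in the table used here and are given without a role. The ranking by size took only genes called in the plain fit whose brm-1 and Col arrays did not overlap. Their brighter genotype mean also had to lie above the median of all genes. The genes ranked 11 to 40 rose by 0.86 to 1.43, and 3 of these 30 have a name (CYP71B22, BETA-VPE and IQD22). The 30 genes ranked 11 to 40 among the falls fell by 1.49 to 2.22, and 5 have a name (AGL24, RING1, sks15, SBT4.12 and UGT84A3). All of them passed with the replicate block, as did every gene called in the plain fit. With the arrays centred, 30 of the rises and 29 of the falls were still called, and with quantile normalization 29 and 27. The smallest adjusted p among falls of unnamed loci was that of AT5G05960, at 9.81, 9.74 and 9.53 in the brm-1 arrays, against 11.08, 11.22 and 11.24 in the Col arrays (a fall of 1.49 ± 0.10, adjusted p = 1.23e-05). AT1G47670 had the same value of 7.19 in all 3 brm-1 arrays, against 8.82, 8.60 and 8.64 in the Col arrays, and fell by 1.5 ± 0.12 (adjusted p = 4.13e-05). AT1G22690 fell by 1.87 ± 0.18 (adjusted p = 0.000255). Among the rises, AT4G39860 was at 10.04, 9.96 and 9.99 in the brm-1 arrays, against 9.0, 9.02 and 9.12 in the Col arrays (a rise of 0.95 ± 0.08, adjusted p = 9.36e-05). AT1G75900 rose by 1.34 ± 0.13 (adjusted p = 0.000255), AT5G12110 by 1.43 ± 0.15 (adjusted p = 0.000537) and AT2G40620 by 1.08 ± 0.12 (adjusted p = 0.000681). AT1G09310 was at 13.78, 13.73 and 13.92 in the brm-1 arrays, against 12.80, 12.83 and 12.85 in the Col arrays and rose by 0.98 ± 0.12 (adjusted p = 0.00121). The ranking required that the groups did not overlap, so the separation of these loci was set by their selection.

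The genes with the smallest adjusted p once replicate 3 had its term were partly others. AT1G13650 was at 10.01, 9.91 and 8.39 in the brm-1 arrays, against 7.13, 6.72 and 5.60 in the Col arrays, so its replicate 3 arrays were lowest in brm-1 and in Col, and the difference of 2.95 ± 0.30 passed only with the replicate term (adjusted p = 0.000103, 0.132 in the plain fit). AT5G62140 (1.19 ± 0.12, adjusted p = 0.000112 with the term) and AT2G24600 (1.13 ± 0.13, adjusted p = 0.000254 with the term) were likewise called only there. In AT2G24600 the groups overlapped, with 10.21, 9.89 and 12.04 in brm-1 and 8.98, 8.67 and 11.09 in Col, and the difference lay between 1.23, 1.22 and 0.95 within the 3 replicate pairs.

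Chloroplast genes leaned upwards in brm-1. Plastids carry a small genome that codes for core subunits of the photosystems, the ATP synthase and Rubisco, while the other subunits and the assembly factors come from the nucleus. Of 69 plastid-encoded genes measured, 57 had a difference above 0 and 12 below, and the median was 0.22, against -0.04 over all genes. The median was 0.18 after quantile normalization and 0.33 after centring. Of the 69, 3 rose (4.35%, against 0.696% of all genes and 1.22% of genes with a name of their own) and none fell in the plain fit. rbcL, the large subunit of Rubisco, was at 11.93, 12.29 and 12.06 in the brm-1 arrays, against 11.55, 11.71 and 11.39 in the Col arrays, a rise of 0.54 ± 0.12 (adjusted p = 0.0437). psbB, the CP47 antenna of photosystem II, rose by 0.65 ± 0.14 (adjusted p = 0.0389), and atpH, the ring subunit of the ATP synthase, by 0.49 ± 0.10 (adjusted p = 0.0281). By role, the medians were 0.31 for 10 subunits of the NDH complex, 0.27 for 5 of photosystem I, 0.19 for 15 of photosystem II, 0.27 for 6 of the ATP synthase and 0.24 for 6 of the cytochrome b6f complex, against 0.08 for 15 ribosomal protein genes and 0.02 for 4 RNA polymerase genes. After quantile normalization they were 0.34, 0.15, 0.16, 0.16 and 0.24 in the same order, against 0.11 and 0.03, so the medians of the photosystems and the ATP synthase lay close to that of the ribosomal protein genes. The plain calls of psbB and atpH were kept in 1 of the 6 fits with an array left out.

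Nuclear genes whose names refer to the chloroplast also lay above 0 for the most part. Of 30 measured, 27 had a difference above 0, the median was 0.31, and none fell in either fit. In the plain fit 3 rose (10%, against 0.696% of all genes and 1.22% of genes with a name of their own). With the replicate term 9 were higher (30%, against 2.52% and 4.24%). Quantile normalization left the median at 0.27. It was 0.31 both in replicate 3 and over the other replicates. Within replicates 1 and 2 alone 6 were higher, and with the term 5 to 8 when 1 array was left out, with none lower. HCF101, which assembles iron-sulphur clusters for photosystem I, was at 10.73, 10.84 and 10.58 in the brm-1 arrays, against 10.34, 10.16 and 10.19 in the Col arrays and rose by 0.49 ± 0.10 (adjusted p = 0.0217). CHLI2, a subunit of the magnesium chelatase of chlorophyll synthesis, rose by 0.49 ± 0.11 (adjusted p = 0.0437), and the plastid chaperonin gene Cpn60beta2 by 0.45 ± 0.10 (adjusted p = 0.0428). Outside this name class, SBPASE, the sedoheptulose-bisphosphatase of the Calvin cycle, was at 13.29, 13.24 and 13.21 in the brm-1 arrays, against 12.63, 12.67 and 12.55 in the Col arrays and rose by 0.63 ± 0.11 (adjusted p = 0.0117), and FTSZ2-2, a tubulin-like protein of plastid division, rose by 0.48 ± 0.11 (adjusted p = 0.0428). Each of these genes had its 3 brm-1 arrays above its 3 Col arrays, but when 1 of the 6 arrays was left out the plain calls were mostly lost. That of HCF101 was kept in 2 of the 6 fits, those of CHLI2 and SBPASE in 1, and those of rbcL, Cpn60beta2 and FTSZ2-2 in none.

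The NDH complex, which runs cyclic electron flow around photosystem I, had 8 nuclear subunit and assembly genes measured. Of these, 4 passed as higher with the replicate term (50%, against 2.52% of all genes and 4.24% of named genes). With 1 array left out 2 to 4 did so, and none passed in the plain fit. NdhL was at 11, 11.13 and 10.63 in the brm-1 arrays, against 10.55, 10.35 and 10.12 in the Col arrays (0.58 ± 0.09, adjusted p = 0.00135 with the term), and NdhN at 10.79, 10.66 and 10.30 in the brm-1 arrays, against 10.03, 10.12 and 9.84 in the Col arrays (0.59 ± 0.09, adjusted p = 0.00135 with the term). NdhS differed by 0.43 ± 0.11 (adjusted p = 0.039 with the term, 0.0511 with the block) and the assembly factor CRR42 by 0.52 ± 0.11 (adjusted p = 0.0157 with the term). The plastid-encoded subunit ndhK passed with the replicate term as well (0.44 ± 0.08, adjusted p = 0.00579). Within each pair of arrays with the same number NdhL and NdhN were higher in brm-1, by 0.45, 0.78 and 0.51 and 0.76, 0.54 and 0.46. Further genes that passed with the replicate term were the photosystem II assembly genes LPA19 (0.50 ± 0.11, adjusted p = 0.0148) and PSB27 (0.43 ± 0.11, adjusted p = 0.0367), LIL3:2, of chlorophyll synthesis (0.33 ± 0.08, adjusted p = 0.038), the thylakoid calcium sensor gene CaS (0.45 ± 0.12, adjusted p = 0.039), the chaperonin gene Cpn60beta4 (0.51 ± 0.10, adjusted p = 0.00977) and the chloroplastic lipocalin gene CHL (0.56 ± 0.14, adjusted p = 0.039). With the block in place of the term, PSB27, LIL3:2 and CaS did not pass (adjusted p = 0.0525, 0.0574 and 0.0585).

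The antenna and Rubisco activase genes did not pass the test. Of a list of 39 nuclear photosynthesis genes 5 were measured, all 5 were above 0 and none passed in either fit: RCA, which activates Rubisco (0.28 ± 0.13), the light-harvesting genes LHCB4.1 (0.30 ± 0.13) and LHCB4.2 (0.32 ± 0.12), and the photosystem I subunit genes PSAE-1 (0.25 ± 0.13) and PSAN (0.32 ± 0.11). With the term and centring 1 of the 5 passed. Their median was 0.30 as deposited and 0.15 after quantile normalization. The 73 genes with a mean over 13 had a median difference of 0.08 as deposited and 0.01 after quantile normalization. In whole seedlings, fewer cells of a type and less RNA per cell cannot be told apart. Markers of other organs were measured in part. Of 16 root markers 2 could be matched to a probe set with a gene name here, the root hair expansin genes EXPA7 (-0.15 ± 0.26) and EXPA18 (0.45 ± 0.29). Of 19 cell division genes the 2 measured were the Aurora kinase genes AUR1 (0.06 ± 0.12) and AUR2 (0.18 ± 0.15). The sign of AUR1 turned without brm-1 replicate 1 (-0.043). None of the 4 was called, and their part in the chloroplast result was not tested.

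**Figure D3:**
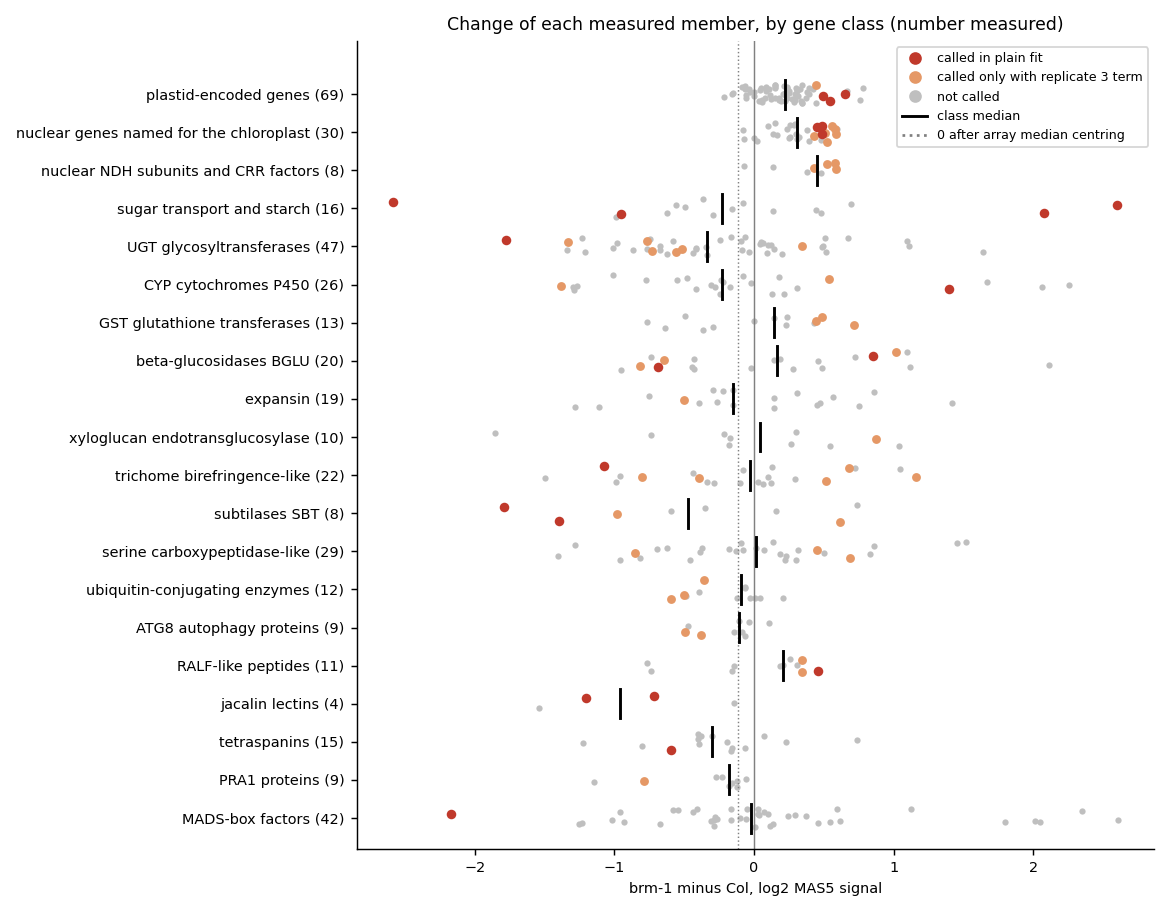
Difference of brm-1 minus Col in log2 MAS5 signal for each measured member of 20 gene classes, with the number measured in brackets, the class median as a black bar and colours for the fit that called the gene. The dotted line marks 0 after each array is centred on its median. The chloroplast classes lie to the right of 0 (medians 0.22, 0.31 and 0.45), and the 4 jacalin lectins found by symbol to the left (median -0.96).

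Sugar transport and starch genes went both ways. Of 16 measured members of that list 2 rose and 2 fell in both fits (12.5% each, against 0.696% and 1.17% of all genes in the plain fit). The rises were those of the sugar transporter genes SAG29 (SWEET15) and SWEET4, at 9.27, 9.25 and 8.99 in brm-1 and 6.22, 6.28 and 7.22 in Col and at 7.87, 8.04 and 7.17 in brm-1 and 5.50, 5.57 and 5.79 in Col. With the term the calls of SAG29, SWEET4, SWEET1 and AMY1 were each kept in all 6 fits with an array left out. In the plain fit that of SAG29 was kept in 6, that of SWEET4 in 2 and those of SWEET1 and AMY1 in none. SWEET1, a glucose transporter, was at 8.57, 8.42 and 8.26 in the brm-1 arrays, against 9.40, 9.45 and 9.25 in the Col arrays and fell by 0.95 ± 0.21 (adjusted p = 0.0392). AMY1, a secreted alpha-amylase, was the other fall, at 4.91, 5.26 and 4.25 in brm-1 and 7.16, 7.50 and 7.51 in Col. Outside the list, the paired tonoplast monosaccharide transporters TMT1 and TMT2 had opposite signs. TMT2 was at 9.32, 9.14 and 8.95 in the brm-1 arrays, against 8.57, 8.37 and 8.29 in the Col arrays (0.73 ± 0.11, adjusted p = 0.00152 with the term), and TMT1 at 9.79, 9.75 and 9.85 in the brm-1 arrays, against 10.24, 10.31 and 10.24 in the Col arrays (-0.47 ± 0.10, adjusted p = 0.0171 with the term). With the arrays centred as well, TMT1 did not pass (adjusted p = 0.0591). The sugar-porter gene SFP2 (0.90 ± 0.14, adjusted p = 0.00209), the starch branching enzyme gene SBE2.2 (0.39 ± 0.10, adjusted p = 0.031) and F2KP, which makes and breaks the regulator fructose-2,6-bisphosphate (0.29 ± 0.08, adjusted p = 0.0407, 0.0604 with the block), were higher with the replicate term.

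The cell wall families below, found by name, did not move as a class. Of 19 expansin genes, which loosen walls, none passed in the plain fit and 1 fell with the replicate term, EXPA15, at 8.84, 8.78 and 8.76 in the brm-1 arrays, against 9.41, 9.25 and 9.23 in the Col arrays (-0.50 ± 0.11, adjusted p = 0.0188, 0.0546 with the arrays centred as well). The class median was -0.15 as deposited and -0.04 after centring, where 2 expansin genes were higher with the term and none lower. Of 10 xyloglucan endotransglucosylase genes, which cut and rejoin xyloglucan, 1 passed with the replicate term. This was XTH18, at 10.27, 9.72 and 11.34 in the brm-1 arrays, against 8.98, 9.08 and 10.66 in the Col arrays, where the groups overlapped and both replicate 3 arrays were high (0.87 ± 0.22, adjusted p = 0.0335). Among 15 cellulase-family GH9 genes GH9B13 was the 1 called, and the median of the 15 was 0.04. The trichome birefringence-like (TBL) family, which acetylates wall polysaccharides, had members called in both directions. Of 22 members, 3 were higher and 3 lower with the replicate term (13.6% each, against 2.52% and 2.95% of all genes). The median was -0.03 (0.09 after centring). With 1 array left out 1 to 3 were higher and 0 to 2 lower. TBL30 was at 5.56, 5.61 and 5.41 in the brm-1 arrays, against 6.55, 6.61 and 6.64 in the Col arrays and fell in the plain fit (-1.07 ± 0.24, adjusted p = 0.0451). Its call was kept in no fit with 1 array left out, either plainly or with the term. TBL41 (-0.80 ± 0.17) and TBL36 (-0.40 ± 0.09) were lower with the term, and TBL38 (1.16 ± 0.26), TBL45 (0.68 ± 0.15) and TBL25 (0.51 ± 0.09) higher. With the term and the arrays centred 3 of the family were higher and 2 lower, and TBL36 did not pass (adjusted p = 0.0821). sks15, of a family of secreted copper-oxidase-like proteins, was at 5.24, 5.85 and 5.72 in the brm-1 arrays, against 7.17, 7.62 and 7.53 in the Col arrays and fell by 1.84 ± 0.28 (adjusted p = 0.00578). Of 7 genes found by the keyword peroxidase, enzymes that can cross-link walls, AT2G41480 rose and AT5G66390 fell. The keyword was searched in symbols and synonyms only, so the 7 do not stand for the whole family. AT5G66390 fell by 0.90 ± 0.15 (adjusted p = 0.00831).

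Families of specialised metabolism differed among themselves. UGT glycosyltransferases, which attach sugars to hormones and phenolics, numbered 47, with 30 below 0 and a median of -0.34 (-0.22 after centring). In the plain fit 1 fell, UGT84A3, at 6.29, 6.89 and 6.13 in brm-1 and 7.93, 8.31 and 8.39 in Col. With the replicate term 6 fell (12.8%, against 2.95% of all genes and 4.05% of named genes) and 1 rose. Only 1 to 4 fell and none rose with 1 array left out. UGT85A2 was at 9.09, 9.41 and 9.07 in the brm-1 arrays, against 9.93, 10.04 and 9.79 in the Col arrays (-0.73 ± 0.17, adjusted p = 0.0248). The other falls were those of UGT76B1, which glucosylates isoleucic acid (-0.77 ± 0.19, adjusted p = 0.0355), UGT87A2 (-0.56 ± 0.13, adjusted p = 0.0274), UGT71C4 (-0.52 ± 0.12, adjusted p = 0.022) and UGT73D1 (-1.33 ± 0.36, adjusted p = 0.0486, 0.0511 with the block), and UGT88A1 was higher (0.34 ± 0.08, adjusted p = 0.0212). With the term and the arrays centred 3 of the family were lower and 3 higher, and with the term and quantile normalization 5 were lower and none higher (median -0.23).

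Of 26 cytochrome P450 genes (median -0.23), CYP71B22 was at 9.33, 9.61 and 9.19 in the brm-1 arrays, against 7.59, 8.32 and 8.04 in the Col arrays and rose by 1.39 ± 0.26 (adjusted p = 0.0166). Its relative CYP71B24 was at 6.99, 7.26 and 6.51 in the brm-1 arrays, against 8.31, 8.40 and 8.20 in the Col arrays (-1.38 ± 0.24, adjusted p = 0.00433 with the term), so members of 1 subfamily were called in opposite directions. CYP71B5 was higher with the term (0.54 ± 0.13, adjusted p = 0.0285). Glutathione transferases conjugate glutathione to reactive compounds. With the term 3 of 13 were higher (23.1%, against 2.52% of all genes and 4.24% of named genes) and none lower. These were GSTF4 (0.71 ± 0.16, adjusted p = 0.0186), GSTL3 (0.49 ± 0.11, adjusted p = 0.0212) and GSTU20 (0.44 ± 0.11, adjusted p = 0.0358, 0.0537 with the block). In the plain fit none of the 13 passed, and with the term and 1 array left out 0 to 1 was higher.

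Of 20 beta-glucosidase (BGLU) genes 1 rose and 1 fell in the plain fit (5% each, against 0.696% and 1.17% of all genes). BGLU33 was at 9.26, 9.42 and 9.0 in the brm-1 arrays, against 8.57, 8.39 and 8.17 in the Col arrays and rose by 0.85 ± 0.17 (adjusted p = 0.0238), and BGLU16 was at 8.50, 8.81 and 8.78 in the brm-1 arrays, against 9.32, 9.37 and 9.47 in the Col arrays and fell by 0.69 ± 0.12 (adjusted p = 0.013). With the term BGLU45 and BGLU46, which act on monolignol glucosides, went opposite ways (1.02 ± 0.24, adjusted p = 0.0227, and -0.65 ± 0.15, adjusted p = 0.0209). With the term and 1 array left out, 1 to 2 of the family were higher and 1 to 4 lower. BGLU40 was lower with the term (-0.81 ± 0.17, adjusted p = 0.012). TPS-CIN, a cineole synthase of the terpene pathway, was at 4.91, 4.93 and 3.3 in the brm-1 arrays, against 7.54, 6.55 and 6.39 in the Col arrays, and 1 brm-1 array lay under the background level of 4.71, the 95th percentile of the bacterial control probe sets. The gene was at least 3.94-fold lower in brm-1 (adjusted p = 0.0455). TPS-CIN has a near-identical neighbouring copy, and which of the copies the probe set reads is not known here. CHIL, a helper of flavonoid synthesis, passed with the replicate term (-0.72 ± 0.17, adjusted p = 0.0222), as did FACT, which makes the alkyl caffeates of suberised tissue, at 7.38, 7.35 and 8.40 in brm-1 and 8.17, 8.22 and 9.16 in Col (-0.81 ± 0.15, adjusted p = 0.00605).

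Genes of protein turnover contained both strong single falls and weak shifts. Of 8 subtilases 2 fell in the plain fit, SBT4.12 and SBT3.5 (25%, against 1.17% of all genes and 1.61% of named genes), and none rose. SBT3.5, known for processing a pectin methylesterase in roots, was at 6.58, 7.01 and 6.18 in the brm-1 arrays, against 7.88, 8.29 and 7.80 in the Col arrays and fell by 1.40 ± 0.29 (adjusted p = 0.0281). ATSBT5.2 was lower (-0.98 ± 0.18, adjusted p = 0.00485) and SBT1.3 higher (0.62 ± 0.16, adjusted p = 0.0451) with the term, and the median of the 8 was -0.47 (-0.36 after centring). Of 29 serine carboxypeptidase-like genes, SCPL45 (0.69 ± 0.10, adjusted p = 0.00114) and scpl29 (0.45 ± 0.12, adjusted p = 0.0383, 0.0547 with the block) were higher and SCPL34 lower (-0.85 ± 0.19, adjusted p = 0.0187) with the term. None of the 29 passed in the plain fit, and of these 5 genes called with the term only ATSBT5.2 and SCPL45 kept their call whichever array was left out.

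ATG8 proteins, which coat the autophagosome, and the enzymes that pass ubiquitin on showed small differences. Of 9 ATG8 genes 8 were below 0, and APG8A, at 9.74, 9.81 and 9.80 in the brm-1 arrays, against 10.16, 10.18 and 10.16 in the Col arrays (-0.38 ± 0.09, adjusted p = 0.0257), and ATG8D (-0.49 ± 0.13, adjusted p = 0.0406, 0.0583 with the block) passed with the replicate term. Of 12 ubiquitin-conjugating enzyme genes UBC19 (-0.59 ± 0.15, adjusted p = 0.0335), UBC16 (-0.50 ± 0.13, adjusted p = 0.0449, 0.064 with the block) and UBC32 (-0.36 ± 0.09, adjusted p = 0.0425, 0.0627 with the block) were lower with it. DER2.1, a Derlin of the endoplasmic reticulum, was lower too (-0.41 ± 0.10, adjusted p = 0.0255). With the arrays also centred none of these 6 genes passed (adjusted p between 0.0704 and 0.165), and the medians of -0.11 for ATG8 and -0.09 for the conjugating enzymes turned to 0.01 and 0.02, so no direction is given for either family. The U-box ubiquitin ligase genes PUB22 and PUB24, known from immune signalling, had opposite signs with the term (0.74 ± 0.13, adjusted p = 0.00498, and -0.68 ± 0.17, adjusted p = 0.0325, the second 0.0567 with centring).

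Falls were called in 2 lectin genes and in single defence genes. Of 4 jacalin-related lectins found by symbol, a family of carbohydrate-binding proteins, the 2 called (50%, against 1.17% of all genes) fell. Members of the family that carry only a locus number here were not counted. JAL22 was at 9.70, 9.81 and 9.05 in the brm-1 arrays, against 10.82, 10.94 and 10.40 in the Col arrays (-1.20 ± 0.21, adjusted p = 0.0117), and JAL33 at 11.80, 11.66 and 11.52 in the brm-1 arrays, against 12.43, 12.38 and 12.31 in the Col arrays (-0.71 ± 0.15, adjusted p = 0.037). JAL34, another of the 4 found by symbol, was at -0.15 ± 0.10 and was not called. ECS1, a secreted apoplastic protein linked to resistance against Xanthomonas, was at 13.05, 12.83 and 12.81 in the brm-1 arrays, against 14.19, 14.16 and 14.46 in the Col arrays and fell by 1.37 ± 0.22 (adjusted p = 0.00726). It was the 1 gene called among 3 measured of a list of 33 salicylic acid defence genes. The median of these 3 was -1.0 over replicates 1 and 2 and 0.47 in replicate 3. The defensin gene PDF1.2, a marker of jasmonate and ethylene defence, was at 6.92, 6.12 and 5.92 in the brm-1 arrays, against 6.95, 8.74 and 9.53 in the Col arrays, where the Col arrays spread over more than 2 log2 units and the replicate 1 arrays differed by 0.03 (-2.09 ± 0.52, adjusted p = 0.0321 with the term). It has near-identical relatives. PDF1.4 was lower with the term too (-1.13 ± 0.28, adjusted p = 0.0301). Of a list of 29 jasmonate and ethylene defence genes 4 were measured, and 1 was lower with the term. Among the 4, 1 lay above 0 (1.34) and 2 were under background in both genotypes, so no direction is given for the list.

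RALF peptides alkalinise the apoplast and limit growth. Of 11 RALF-like genes 1 rose in the plain fit and 3 with the term (1 with any array left out), and none fell. The 3 were 27.3% of the family, against 2.52% of all genes and 4.24% of named genes. RALFL34, which acts in lateral root initiation, was at 11.70, 11.71 and 11.57 in the brm-1 arrays, against 11.16, 11.22 and 11.23 in the Col arrays and rose by 0.46 ± 0.10 (adjusted p = 0.032). RALFL22 (0.34 ± 0.09, adjusted p = 0.0449) and RALFL24 (0.34 ± 0.09, adjusted p = 0.0439) passed with the replicate term but not with the block (adjusted p = 0.0589 and 0.0537). CLE41, whose peptide keeps vascular stem cells dividing, was higher in the same way (0.46 ± 0.12, adjusted p = 0.039 with the term, 0.0537 with the block). MOL1, a receptor-like kinase that restrains cambium, was lower with the term (-0.60 ± 0.16, adjusted p = 0.0426, 0.0614 with the block), and the receptor kinase gene CR4 (ACR4), of epidermal and root cell patterning, higher (0.90 ± 0.23, adjusted p = 0.0385, 0.0537 with the block).

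Transcription factor families were measured only in part, and few of their genes with a name were called. The keyword classes held 2 MYB genes, 2 AP2/ERF genes and 1 homeobox gene, so few calls here say little about these families. bHLH115, a factor of the iron deficiency response, was at 9.63, 9.63 and 9.43 in the brm-1 arrays, against 10.29, 10.26 and 10.19 in the Col arrays and fell by 0.68 ± 0.10 (adjusted p = 0.00452), and the other 6 of the 7 genes found by the keyword bHLH did not pass. Of 42 MADS-box genes, 27 of them under background in both genotypes, AGL24 was the 1 called, at 5.28, 5.19 and 5.34 in brm-1 and 7.37, 7.37 and 7.57 in Col. None of 7 WRKY genes passed, and WRKY53, a senescence regulator, was at 8.91, 8.87 and 9.98 in brm-1 and 7.60, 7.60 and 9.89 in Col. With the replicate term TCP15, a growth-restraining TCP factor, was higher (0.80 ± 0.15, adjusted p = 0.00717), and so was BPEp, a bHLH factor known from petals (0.92 ± 0.23, adjusted p = 0.0334). FHL, which carries phytochrome A into the nucleus, was at 7.45, 7.14 and 8.91 in the brm-1 arrays, against 6.33, 5.97 and 7.26 in the Col arrays. The groups overlapped, yet the difference within the 3 replicate pairs was 1.12, 1.17 and 1.65, and FHL passed with the term (1.31 ± 0.26, adjusted p = 0.00874).

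Hormone genes were represented thinly. RR16 (ARR16), a type-A response regulator that dampens cytokinin signalling, was at 7.02, 7.11 and 6.31 in the brm-1 arrays, against 7.78, 7.82 and 7.64 in the Col arrays (-0.93 ± 0.21, adjusted p = 0.0181 with the term), and its relative ARR15 was at 4.27, 4.74 and 4.82 in brm-1 and 6.59, 6.55 and 4.36 in Col and was not called. None of 7 auxin genes and none of 4 gibberellin genes passed in either fit, and medians were 0.68 and 0.02. Of the 7 auxin genes 6 were above 0, and with the term 2 passed as higher after centring and 1 after quantile normalization. COR15A, a cold-response gene, was not called (-0.90 ± 0.31), nor were the other 3 measured of 37 cold and abscisic acid genes. Of 6 SWI/SNF subunit genes none was called in either fit. CHR23, a remodeling ATPase gene related to BRM, was at -0.46 ± 0.22, CHB3 (SWI3D) at 0.13 ± 0.13 and BSH at -0.04 ± 0.13, whose sign turned with centring (0.075) and with quantile normalization (0.011).

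**Figure D4:**
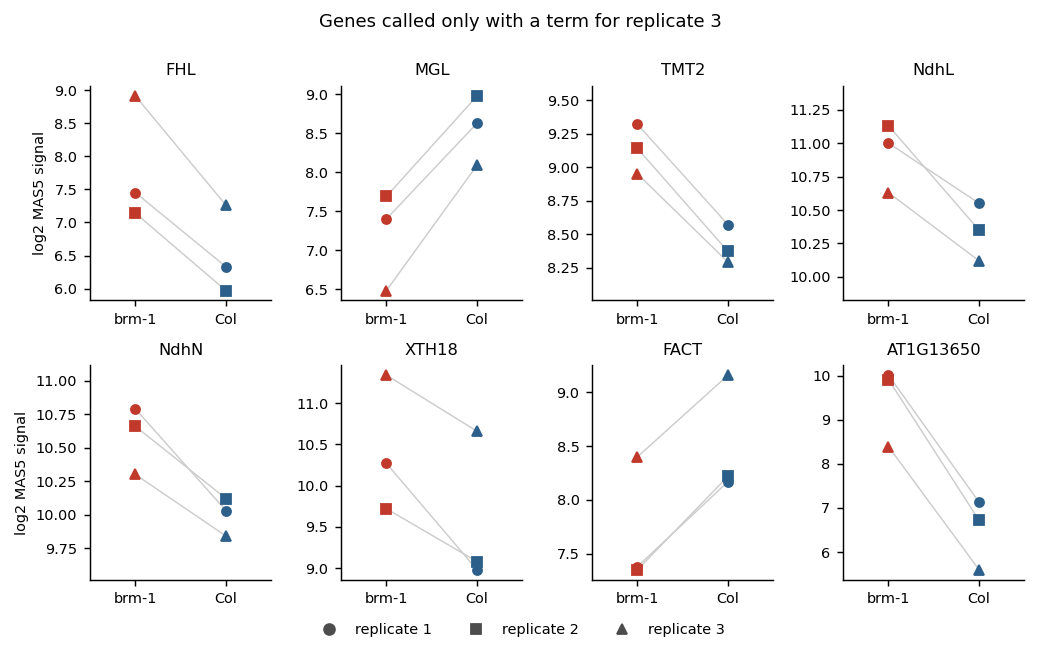
Log2 MAS5 signals of 8 genes called only with a term for replicate 3, with brm-1 at the left in red, Col at the right in blue and a line joining arrays with the same replicate number. Each vertical axis has its own range. The replicate 3 arrays (triangles) are shifted in both genotypes, as in FHL (8.91 in brm-1 and 7.26 in Col). The 3 lines of a gene run the same way, which a call in this fit favours.

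Several enzymes of amino acid and nitrogen breakdown were lower with the replicate term. MGL, the methionine gamma-lyase, was at 7.40, 7.69 and 6.48 in the brm-1 arrays, against 8.63, 8.98 and 8.09 in the Col arrays (-1.38 ± 0.15, adjusted p = 0.000144), and IVD, the isovaleryl-CoA dehydrogenase of leucine breakdown, at 9.69, 9.71 and 9.13 in the brm-1 arrays, against 10.14, 10.29 and 9.93 in the Col arrays (-0.61 ± 0.09, adjusted p = 0.00142). AAH, which breaks down allantoate, was lower as well (-0.94 ± 0.23, adjusted p = 0.0291). The 3 genes were picked after their values were seen. FIS1B, of mitochondrial and peroxisomal division, was lower (-0.55 ± 0.11, adjusted p = 0.00967), and SRC2, a small membrane-bound C2-domain protein (0.69 ± 0.11, adjusted p = 0.00235), and VTC4, of ascorbate synthesis (1.03 ± 0.24, adjusted p = 0.0236), were higher. HIS1-3, a drought-inducible linker histone H1, was at 6.49, 5.54 and 5.59 in brm-1 and 7.35, 7.26 and 6.92 in Col (-1.30 ± 0.35, adjusted p = 0.049 with the term, 0.0631 with the block). WSD1, a wax ester synthase, lay under background in all 3 Col arrays and was at least 1.98-fold higher in brm-1 (adjusted p = 0.0178 with the term).

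Some falls lay side by side on the chromosome. With the replicate term, 287 lower genes had a measured protein-coding neighbour, and for 21 (7.32%) a direct neighbour was lower too. Among the other 8585 genes with a measured neighbour, 368 (4.29%) stood next to a lower gene. For the rises the counts were 6 of 239 (2.51%), against 310 of 8633 (3.59%). The 11 lower pairs included AT1G52050, AT1G52060 and AT1G52070, which follow each other on chromosome 1. AT1G52060 was at 8.17, 7.77 and 8.71 in the brm-1 arrays, against 9.64, 9.99 and 10.02 in the Col arrays (a fall of 1.67 ± 0.21, adjusted p = 0.00185) and AT1G52070 at 7.93, 8.17 and 9.06 in the brm-1 arrays, against 10.10, 10.33 and 10.45 in the Col arrays (a fall of 1.91 ± 0.25, adjusted p = 0.0019), and AT1G52050 fell by 1.18 ± 0.26 (adjusted p = 0.0404). Other pairs were AT2G29290 (-1.38 ± 0.19) with AT2G29300 (-1.48 ± 0.27) and AT5G60520 (-1.81 ± 0.30) with AT5G60530 (-1.32 ± 0.20). Tandem copies can share probes, which was not tested.

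Of 258 genes that the study lists as gaining H3K27me3 in brm-1, 99 were measured, and with the replicate term 15 were lower (15.2%, against 2.95% of all genes) and 1, TBL45, was higher, while 6 were lower in the plain fit (6.06%, against 1.17%). With the term and 1 array left out, 9 to 14 were lower, and within replicates 1 and 2 alone 17. Members added by the term include AT4G17810, described as a C2H2 zinc finger protein, at 6.99, 7.12 and 5.73 in the brm-1 arrays, against 8.46, 8.46 and 7.90 in the Col arrays (-1.66 ± 0.24, adjusted p = 0.000977), and AT1G22430, described as a GroES-like dehydrogenase (-1.16 ± 0.15, adjusted p = 0.000429).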

How the data were processed

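Whole 14-day-old seedlings were measured on 12 ATH1 arrays, 3 per genotype. The authors deposited 1 MAS5 signal on the log2 scale for every probe set of an array, made per the labels with MAS5 and affy (versions not given in the sources used). Undoing the log, the 2% trimmed mean of a column lay between 499.98 and 500.02, the mark of scaling to a common level. Detection calls and scanner files were not used here. Of 22810 probe sets, 13513 had 1 gene in the platform annotation, 503 several and 8794 none. Only those with 1 gene were used. No gene of the lists for light and shade signalling (20 genes), Polycomb complexes (13) and seed maturation (15) was matched to a probe set used here. These lists could therefore not be described, which does not mean that the arrays lack their genes. Names were updated through RefSeq's table for TAIR10.1 (13436 matched), and the brightest probe set on average, among those of 1 gene, stood for a gene, which left 13356 genes (146 had several probe sets). The 95th percentile of 27 bacterial control probe sets (4.71 on the log2 scale) served as background. Where the mean of the dimmer genotype lay under it, the fold is the brighter mean over the dimmer arrays raised to that level, "at least". The number of arrays limits the precision.

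limma 3.58.1 (R 4.3.3) gave the tests, which were two-sided, with 1 mean per genotype over 12 arrays, a variance trend in eBayes and p-values adjusted by Benjamini-Hochberg over every gene. It was run once plainly and once with a term for replicate 3. Arrays with the same replicate number deviated together from their genotype means (correlations of 0.438, 0.379 and 0.677 for replicates 1, 2 and 3), so the replicate block was fitted as well. Replicate 1 of Col correlated with replicate 2 of brm-1 at 0.474, so the numbers mainly set replicate 3 apart. The block was printed where it changed a call. On simulated data with 200 changed genes, the plain fit recovered 44% of changes of 1 log2 unit and 71.6% of those of 3. With the term the shares were 42.7% and 71.6%. False calls were 8 of 128 in the plain fit and 8 of 126 with the term. The simulated arrays had no shift shared by replicate 3, so the simulation does not test the use of the term.

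Named genes were those ranked 11 to 40 by size in each direction, the called members of each class, and the 15 genes with the smallest adjusted p with the replicate term, genes with a known function first. The 22 hand-written gene lists, the keyword classes and the symbol families, and the genes to describe, were chosen with earlier results of these data known. Classes are described by counts and medians, with no test. Keyword classes that caught unrelated names (defensins and late embryogenesis proteins) were not used. Alternatives were other normalizations, filters, offsets, variance settings, subsets of arrays and every array left out in turn. The planned promoter motif search was not run, since no promoter sequence was at hand.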

Additional observations from a re-analysis of the deposited data

Results flagged for a closer look

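The difference between brm-1 and Col was set against the difference that brm-1 made without CLF, in the double mutant brm-1 clf-29 set against clf-29. Here 3 genes were picked out because that test of the difference between the differences passed. It did so with a term for replicate 3 (limma, adjusted p = 0.0366 for each) and not in the plain fit (adjusted p = 0.151 for AT2G41480, 0.157 for RING1 and 0.363 for AT5G52810). Errors below are SE of the plain fit. AT2G41480 was 1.28 ± 0.13 higher in brm-1 clf-29 than in clf-29 and 2.53 ± 0.13 higher in brm-1 than in Col, a difference of -1.25. RING1 differed by -0.90 ± 0.14 without CLF and by -2.14 ± 0.14 with it, a difference of 1.24. AT5G52810 differed by 0.05 ± 0.21 without CLF (adjusted p = 0.973) and by -1.59 ± 0.21 with it, a difference of 1.63. Groups of 3 arrays are too small to be searched for single outlying samples.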

How the results depend on the processing

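The counts of 93 genes higher and 156 lower in brm-1 moved by over 1.5 times under several settings. They were 336 and 394 with the term for replicate 3, 316 and 355 within replicates 1 and 2, 299 and 371 with array weights, 27 and 63 without a variance trend, and 229 and 332 over every non-control probe set. With the replicate block, which takes the pairing by number, they were 288 and 350. A 1.5-fold difference with no test counted 1500 and 1686. Centring gave 211 higher in the plain fit and 729 with the term. With 1 array left out, 28 to 77 were higher and 58 to 143 lower in the plain fit, and with the term 161 to 302 and 208 to 302. Fits that join the term with another setting were added after the data were seen. The causes were not tested. The other settings kept both counts of the plain fit within 1.5 times, apart from single arrays left out. BSH (-0.037), which was not called, changed sign to 0.011 with quantile normalization and with array weights, to 0.075 with centring and to 0.040 within replicates 1 and 2, and lay between -0.120 and 0.035 with 1 array left out. AUR1 (0.06), also not called, lay between -0.043 and 0.127 with 1 array left out. No other gene with values in the text changed sign under these settings. Of 98 genes considered for the text that were called only with the term, 16 did not pass once quantile normalization was added (adjusted p between 0.0508 and 0.093), 21 once centring was added (0.0546 to 0.165) and 21 with the block in its place (0.0511 to 0.064). The promoter motif search was not run. With 3 arrays a genotype and detection calls not used, differences of dim genes are the least certain.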
